A study of Mus musculus with 8 samples.

Results

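The HoxD cluster is a run of 9 homeobox genes on mouse chromosome 2, Hoxd1, Hoxd3, Hoxd4, Hoxd8, Hoxd9, Hoxd10, Hoxd11, Hoxd12 and Hoxd13, taken by symbol, and all 9 were among the 36317 distinct gene symbols of the table. Hox genes encode transcription factors that specify position along the body axis, and in each cluster the paralogue number runs in the order of the genes, with low numbers used in hindbrain and neck and high numbers in lumbar, sacral and tail levels and, for HoxD, in limbs and genitalia. The forebrain lies ahead of the Hox domain and normally keeps the clusters silent. EED is the subunit of Polycomb repressive complex PRC2 that binds trimethylated histone H3 lysine 27, and Hox clusters are among the best known targets of that mark.

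Transcripts were measured by bulk RNA sequencing of dissected mouse embryo tissue in 4 groups of 2 libraries. The groups were EED-cKO forebrain at embryonic day (E) 15.5, wild-type (wt) forebrain at E15.5, wt spinal cord at E13.5 and wt forebrain at E13.5. In EED-cKO embryos the knockout of Eed depends on Sox1-Cre, which acts in the neural lineage, so vessels, blood and meninges in the same dissection are not its target. The labels give no strain, and do not say whether a library is 1 embryo or a pool, so the spread behind each p-value may be technical.

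Values are RPKM, read counts scaled by the authors for transcript length and library size, given in steps of 0.1 RPKM with no read counts, so the depth behind a value is unknown. Summed RPKM per library was 761647 to 843296 at E15.5 and 378294 to 397320 at E13.5. Levels at the 2 ages are therefore set side by side without a direct contrast. The test of the knockout change against the regional change, given below, spans both ages and carries this limit. Eed was at 10 and 10.6 RPKM in EED-cKO forebrain, against 25.8 and 27.9 RPKM in wt E15.5 forebrain, a fall of the log2 value by 1.30 (SE 0.085), and of the 6 PRC2 core genes 4 fell and 1 rose. Of 8 forebrain markers, 5 fell and 1 rose in EED-cKO, and all 8 were lower in spinal cord, where Emx2 and Otx1 were listed at 0. A listed 0 may also be a failed estimate, since 30 genes that reach 10 RPKM in each E13.5 library have a 0 throughout the E15.5 columns.

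In the 4 E15.5 columns the gene names had to be matched to the values in alphabetical order, which moved every HoxD gene except Hoxd1. The 10 rows named Hoxd, the 9 genes and the antisense transcript Hoxd3os1, were the same 10 rows of the table in both orders. Of these 10 rows, 7 were at 1 RPKM or more in both EED-cKO libraries and 0 in either wt E15.5 library, whichever name each row carries. Their sum was 91.8 and 77.3 RPKM in EED-cKO, against 0.3 and 0.1 RPKM in wt. Which gene holds which of these values rests on the alphabetical order alone, because near 0 the wt values cannot check it.

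The cluster lies on the plus strand of GRCm38 chromosome 2, from Hoxd13 at chr2:74668310-74671599 to Hoxd1 at chr2:74762980-74765142 in GENCODE release M21. The sequences just upstream of 4 genes are shown because the genes span the responses described below, with Hoxd10 at the highest EED-cKO level, Hoxd4 high in both EED-cKO and spinal cord, and Hoxd12 and Hoxd1 at 0 in EED-cKO. Each is the 250 bases before a RefSeq transcript start (GRCm38.p6, plus strand), with CG dinucleotides, the sites of DNA methylation that Polycomb-bound islands are rich in, in capitals.
Hoxd10, chr2:74691641-74691890: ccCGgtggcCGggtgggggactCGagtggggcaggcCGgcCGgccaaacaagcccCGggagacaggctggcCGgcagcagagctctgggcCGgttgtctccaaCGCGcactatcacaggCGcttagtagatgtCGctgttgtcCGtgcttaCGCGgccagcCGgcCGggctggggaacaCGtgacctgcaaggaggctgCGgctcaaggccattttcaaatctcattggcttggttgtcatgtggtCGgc
Hoxd4, chr2:74721728-74721977: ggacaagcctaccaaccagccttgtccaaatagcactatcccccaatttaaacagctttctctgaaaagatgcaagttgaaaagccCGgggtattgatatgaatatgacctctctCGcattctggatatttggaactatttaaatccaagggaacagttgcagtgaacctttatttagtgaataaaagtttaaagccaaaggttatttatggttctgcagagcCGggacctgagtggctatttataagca
Hoxd12, chr2:74674763-74675012: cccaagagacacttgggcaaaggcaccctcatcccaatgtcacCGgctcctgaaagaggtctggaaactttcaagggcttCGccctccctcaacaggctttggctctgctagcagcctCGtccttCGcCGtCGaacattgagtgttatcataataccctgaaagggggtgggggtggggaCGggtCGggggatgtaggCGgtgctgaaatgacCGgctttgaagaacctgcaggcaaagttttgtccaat
Hoxd1, chr2:74762730-74762979: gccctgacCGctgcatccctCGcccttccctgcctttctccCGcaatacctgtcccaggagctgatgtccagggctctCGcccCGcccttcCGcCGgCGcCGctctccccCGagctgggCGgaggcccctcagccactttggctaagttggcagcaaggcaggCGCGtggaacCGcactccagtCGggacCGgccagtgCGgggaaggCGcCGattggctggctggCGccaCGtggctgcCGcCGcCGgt

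RefSeq's gene span for Hoxd10 begins further upstream than the transcript start used for its sequence, and the plot of differences against distance places Hoxd10 by that span. The printed stretches held 20 CG in Hoxd10, 3 in Hoxd4, 10 in Hoxd12 and 24 in Hoxd1. Over 300 bases around the start, all 9 genes had a RefSeq window, with 10 windows in all since Hoxd11 has 2. A window was called CpG-rich at a GC content of at least 50% and a ratio of observed to expected CG of at least 0.6. That held for 5 of the 10 HoxD windows, those of Hoxd1, Hoxd3, Hoxd10, Hoxd13 and one start of Hoxd11, against 33.5% of all 32851 windows. Shares over genes silent in wt E15.5 forebrain are not given, since a window was found for 8765 of 14876 of them, and for 57 of the 96 of them that reached 1 RPKM in EED-cKO. Hoxd1, with a ratio of 0.80, stayed at 0 RPKM in EED-cKO, while Hoxd4, with a ratio of 0.34, reached 14.9 and 12.3 RPKM. The GENCODE span of Hoxd4 begins at chr2:74711929, within the CpG-rich Hoxd3 window (chr2:74711743-74712042). The ratio for Hoxd4 therefore depends on the start taken. Whether the windows go with the response was not tested.

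Setting EED-cKO against wt E15.5 forebrain asked which HoxD genes differ in level without EED. HoxD transcripts appeared across the cluster from Hoxd3 to Hoxd13, except for Hoxd12. Of the 9 genes, all at 0.1 RPKM or less in wt E15.5 forebrain, 7 reached 1 RPKM in each EED-cKO library, against 0.645% of the 14876 genes as silent in wt. For the same 7 genes both EED-cKO libraries lay above both wt libraries, beside 42.6% of all tested genes. Hoxd1, at the 3′ end of the cluster, and Hoxd12, between the responding Hoxd11 and Hoxd13, were listed at 0 in both EED-cKO and both wt libraries. No wt forebrain library of either age had a HoxD gene above 0.1 RPKM.

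The highest EED-cKO levels were those of Hoxd10 and Hoxd9 in the middle of the cluster, while Hoxd11 beside them stood below Hoxd4. Hoxd10, which in mice acts with its paralogues in lumbar motor neurons, was at 25.6 and 21.4 RPKM in EED-cKO, while both wt E15.5 libraries were listed at 0. Hoxd9, a gene of posterior trunk and limb, was at 20.5 and 18.8 RPKM in EED-cKO, against 0.1 and 0 RPKM in wt. Hoxd11, which shapes the forearm and kidney together with Hoxa11, was at 11.5 and 8.1 RPKM in EED-cKO and at 0 in both wt libraries. For all 3 genes both EED-cKO libraries lay far above both wt libraries.

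Differences were tested with limma on log2(RPKM + 1) over all 17022 genes with at least 1 RPKM in 2 or more libraries, with calls at 0.05 after Benjamini-Hochberg adjustment. Against wt libraries at 0 they are differences on that scale and not folds. Hoxd10 rose by 4.61 ± 1.23 SE (limma adjusted p = 0.0198), Hoxd9 by 4.30 ± 1.18 (0.0222) and Hoxd11 by 3.41 ± 0.866 (0.0164). These errors come from the spinal cord libraries, which also enter the shared spread and which differ from each other in these genes, as described below. Fitted with the 4 E15.5 libraries alone, the differences were the same and the SE was 0.122 for Hoxd10, 0.102 for Hoxd9 and 0.182 for Hoxd11 (limma adjusted p = 0.0034, 0.003 and 0.0081). In the fit of all libraries the 3 calls were lost when either EED-cKO or either wt E15.5 library was left out (limma adjusted p from 0.0731 to 0.114), with differences between 3.19 and 4.73.

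The genes on either side stood below Hoxd10 and Hoxd9. Hoxd4, a gene of the posterior hindbrain and neck that responds to retinoic acid, was at 14.9 and 12.3 RPKM in EED-cKO and at 0 in both wt libraries (log2 difference 3.86 ± 0.103 SE, limma adjusted p = 2.9e-06). Hoxd8, a trunk gene, was at 7.9 and 6.1 RPKM in EED-cKO, against 0.1 RPKM in both wt libraries (2.85 ± 0.15, limma adjusted p = 4.3e-05). Hoxd3, which patterns the upper cervical vertebrae, was at 6.9 and 6.4 RPKM in EED-cKO and at 0 in wt (2.93 ± 0.0897, limma adjusted p = 4.5e-06). At the other end of the cluster Hoxd13, the gene of digits and genitalia, was at 4.4 and 4 RPKM in EED-cKO, against 0.1 and 0 RPKM in wt (2.31 ± 0.146, limma adjusted p = 7.7e-05). These 4 calls held with each of the 8 libraries left out, with the highest limma adjusted p at 0.0025.

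Of 8 tested HoxD genes, 7 rose in EED-cKO, beside 30.2% of all tested genes called higher. With wt at 0.1 RPKM or less there was almost no room for a fall. Hoxd12 did not pass the filter on low values. Hoxd13 passed only through the EED-cKO libraries and Hoxd1 only through the spinal cord libraries, where each is high, so that the count of called genes is shaped by the filter. The median difference was 3.18 over the 8 tested genes and 0.08 over all tested genes. In order of level in EED-cKO forebrain the genes ran Hoxd10, Hoxd9, Hoxd4, Hoxd11, Hoxd8, Hoxd3 and Hoxd13, and of these neighbours only the ranges of Hoxd8 and Hoxd3 overlapped. An exact two-sided permutation of 2 and 2 libraries cannot give a p below 0.333, so a call rests on the spread that limma shares across genes.

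**Figure D1:**
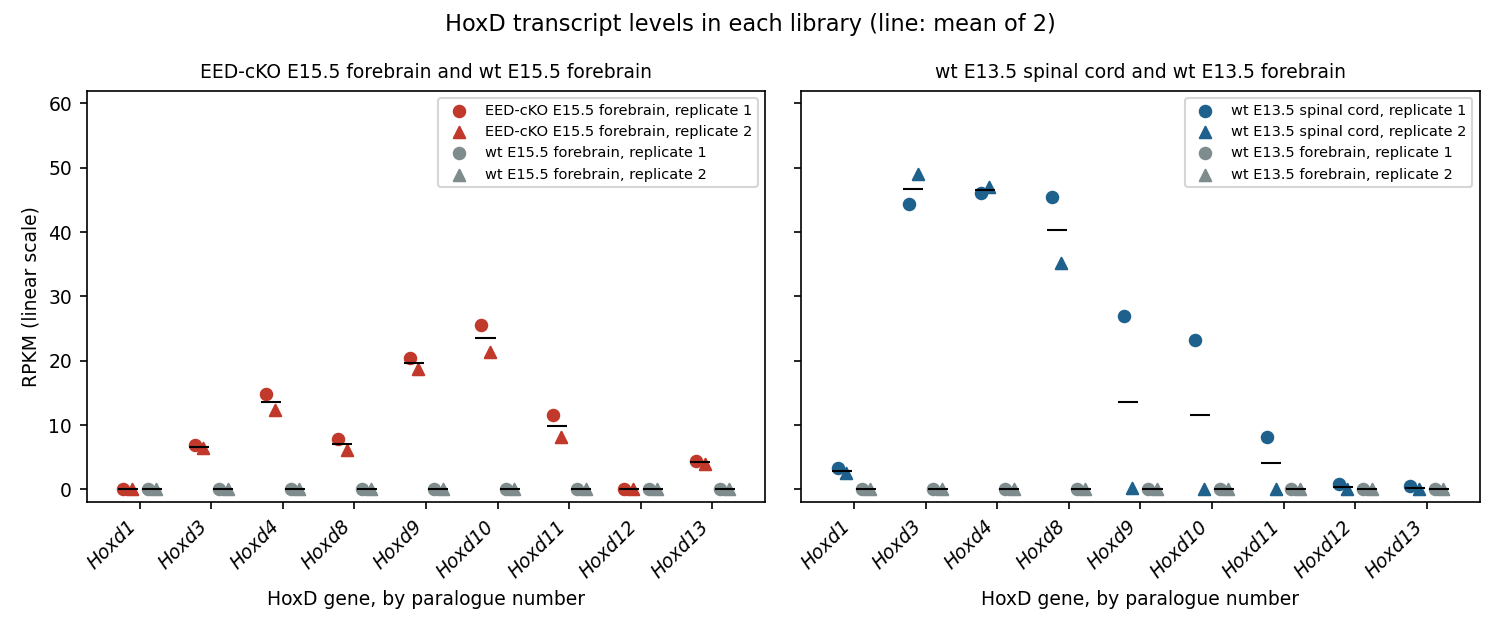
RPKM on a linear scale of the 9 HoxD genes, in order of paralogue number, in EED-cKO and wt E15.5 forebrain (left) and in wt E13.5 spinal cord and forebrain (right). Circles and triangles are replicates 1 and 2 and lines are their means. EED-cKO levels peak at Hoxd10 with 25.6 and 21.4 RPKM, while in spinal cord Hoxd9 to Hoxd11 are present in replicate 1 and close to 0 in replicate 2.

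EED-cKO replicate 1 was the higher library for all 7 HoxD genes above 0, with replicate 2 at 70.4% (Hoxd11) to 92.8% (Hoxd3) of it. The same library was the higher for 27 of the 34 Hox genes of all clusters at 1 RPKM or more in both, the 7 among them, and for 44.1% of the 15885 tested genes that differed. Skeletal muscle markers went the other way, with a summed level of 7 and 103 RPKM in EED-cKO replicates 1 and 2, against 4.9 and 6.5 RPKM in wt, and 1 of 2 tested rose. Spinal cord and hindbrain markers, 7 of 9 of which rose, summed to 151.7 and 130 RPKM in EED-cKO, against 49 and 41.4 RPKM in wt. HoxD genes are also used in limb and body wall, and all 8 tested limb mesenchyme markers rose in EED-cKO, with a sum over the 9 of 143.8 and 142 RPKM in EED-cKO, against 24.6 and 22.9 RPKM in wt. Of these, Hand2 was at 22.8 RPKM in each EED-cKO library, Tbx5 at 10.6 and 9.1 and Pitx1 at 7.9 and 11.4, with all at 0 in wt. Tbx4 was at 0.6 and 0.7 RPKM in EED-cKO, against 0.3 and 0.2 RPKM in wt. All 8 meninges and connective tissue markers (719 and 887.2 RPKM in EED-cKO, against 245.7 and 187.6 in wt) and all 6 endothelial markers (238.4 and 244.6, against 165.2 and 158.4) rose too, with none at 0 in EED-cKO. Of 8 blood markers 1 rose and 1 fell (11535 and 12988 RPKM in EED-cKO, against 8275 and 11080 in wt). The 1 that fell was Hbb-bt, at 5.9 and 8.1 RPKM in EED-cKO, against 395.4 and 547.4 in wt. Hbb-bs, at 5109 and 5902 RPKM against 3159 and 4340, was not called. What lies behind the fall of Hbb-bt was not tested. The part of all these markers in the HoxD levels was not tested. In bulk tissue more cells with a transcript and more transcript per cell cannot be told apart.

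Wt E13.5 spinal cord against wt E13.5 forebrain gave the normal pattern of the cluster in tissue that uses it. Hoxd3, Hoxd4 and Hoxd8 were at similar high levels and Hoxd1 was low, in both libraries. The genes from Hoxd9 onward were seen almost wholly in 1 of the 2 libraries. Of 9 spinal cord and hindbrain markers tested, all 9 were higher in spinal cord, with a sum of 328.5 and 316.9 RPKM, against 75.2 and 76.6 RPKM in forebrain.

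Hoxd3 was at 44.3 and 49 RPKM in spinal cord and listed at 0 in both E13.5 forebrain libraries (log2 difference 5.57 ± 0.0897 SE, limma adjusted p = 1.2e-07). Hoxd4 was at 46.1 and 47 RPKM in spinal cord and at 0 in forebrain (5.57 ± 0.103, limma adjusted p = 1.8e-07). Hoxd8 was at 45.4 and 35.2 RPKM in spinal cord, against 0.1 RPKM in both forebrain libraries (5.22 ± 0.15, limma adjusted p = 1.2e-06). The ranges of Hoxd3 and Hoxd4 overlapped, so their order is within the spread. Hoxd1, which in mice acts in pain-sensing neurons, was at 3.3 and 2.5 RPKM in spinal cord and at 0 in forebrain (1.96 ± 0.104, limma adjusted p = 1.7e-05), and it was the lowest of the 4. All 4 were called with each of the 8 libraries left out.

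The posterior genes split the spinal cord libraries. Hoxd9 was at 26.9 RPKM in replicate 1 and 0.3 RPKM in replicate 2, against 0 in both forebrain libraries. Hoxd10 was at 23.2 RPKM and Hoxd11 at 8.2 RPKM in replicate 1, and both were at 0 in replicate 2 and in forebrain. Hoxd12 reached 0.9 RPKM and Hoxd13 0.5 RPKM in replicate 1, against 0 and 0.1 RPKM in replicate 2. None of Hoxd9, Hoxd10, Hoxd11 and Hoxd13 was called (limma adjusted p = 0.116, 0.171, 0.175 and 0.0825). Without spinal cord replicate 2 all 4 were called (log2 differences 4.80, 4.60, 3.20 and 0.58, with limma adjusted p at most 0.0105), and Hoxd13 was also called after quantile normalization (0.59, limma adjusted p = 0.0097). With replicate 1 left out, the difference was 0.38 for Hoxd9 and 0 for Hoxd10 and Hoxd11.

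This split was shared with the posterior genes of other clusters and with few other genes. Of the 17022 tested genes, 13 were at 5 RPKM or more in spinal cord replicate 1 and at least 10 times their level in replicate 2, and 1 gene was so in the other direction. The 13 were 8 Hox genes (Hoxa10, Hoxa11, Hoxc10, Hoxc11, Hoxc12, Hoxd9, Hoxd10 and Hoxd11), the Y-linked genes Ddx3y, Eif2s3y, Kdm5d and Uty, and Mir7060, and the gene in the other direction was Xist. By the Y-linked genes and Xist, the spinal cord libraries also differed in the sex makeup of their embryos. Summed limb mesenchyme markers were at 50.1 and 54.5 RPKM in spinal cord replicates 1 and 2, of which Lmx1b held 34.2 and 35.8 RPKM. Lmx1b was the 1 of 8 tested limb markers called higher than in E13.5 forebrain, and 3 were lower. The hindlimb factor Pitx1 was at 0 and its partner Tbx4 at 0.1 RPKM in both replicates, and summed muscle markers were at 14.2 and 14.6 RPKM. The part of these markers, and of sex, in the split of the Hox genes was not tested.

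Of the 8 tested genes, 4 were higher in spinal cord, beside 21.8% of all tested genes. With forebrain at 0.1 RPKM or less there was almost no room for a fall. The median difference was 2.44 over the 8 and 0 over all tested genes. Counting genes at 0.1 RPKM or less in both forebrain libraries that reached 1 RPKM in both spinal cord libraries, HoxD held 4 of 9, against 0.62% of 17892. Both spinal cord libraries lay above both forebrain libraries for 6 of the 8 tested genes, Hoxd9 and Hoxd13 among them, beside 37.0% of all tested genes. In replicate 2 Hoxd9 was at 0.3 and Hoxd13 at 0.1 RPKM, near the RPKM step of 0.1.

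**Figure D2:**
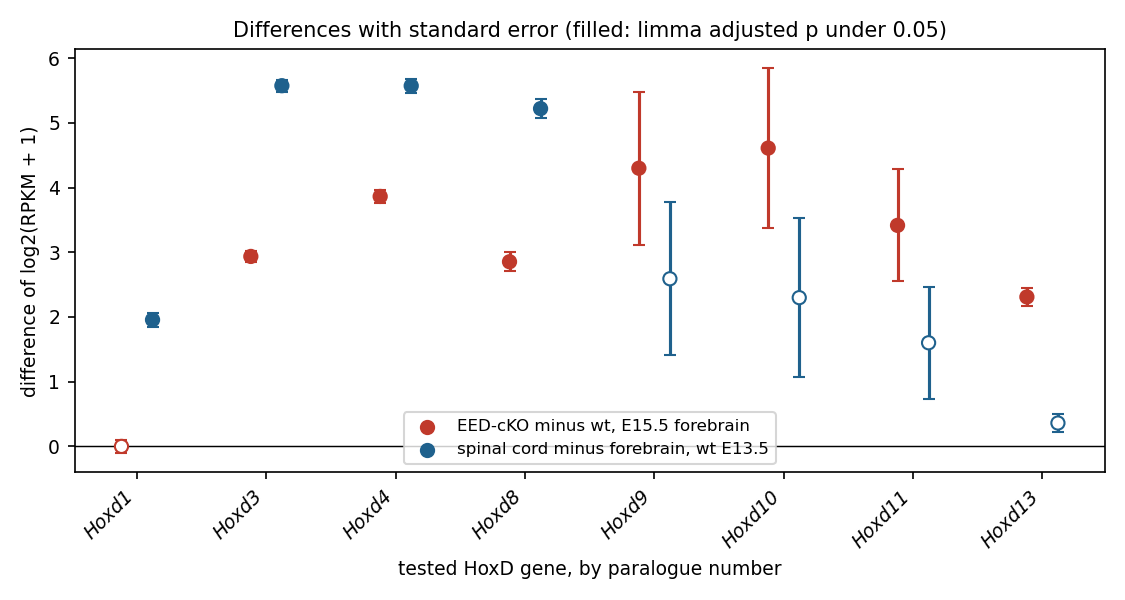
Differences of log2(RPKM + 1), with standard errors, for the 8 tested HoxD genes in EED-cKO minus wt E15.5 forebrain (red) and in spinal cord minus forebrain of wt E13.5 (blue). Filled points were called by limma. The regional difference is the larger from Hoxd1 to Hoxd8 and the knockout difference the larger at Hoxd13, with wide errors at Hoxd9 to Hoxd11.

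The difference between the 2 changes, which share no library, was tested in the same fit. HoxD genes were at 0.1 RPKM or less in wt forebrain of both ages, so each change follows the EED-cKO or spinal cord level. The contrast therefore also carries the unlike summed RPKM of the 2 ages and cannot separate it from a difference in response. For 4 genes the knockout change was the smaller, beside 12.7% of all tested genes, with Hoxd3 at −2.64 ± 0.127 SE, Hoxd8 at −2.37 ± 0.213, Hoxd1 at −1.96 ± 0.147 and Hoxd4 at −1.71 ± 0.146 (limma adjusted p from 3.7e-05 to 0.00033). For Hoxd13 alone it was the larger (1.95 ± 0.206, limma adjusted p = 0.00062), beside 23.4% of all tested genes. Hoxd13 passed the filter on low values only through EED-cKO and Hoxd1 only through spinal cord, so the filter favored the direction of both calls. Hoxd9 (1.71 ± 1.67), Hoxd10 (2.31 ± 1.74) and Hoxd11 (1.81 ± 1.22) were not called. All 3 were called without spinal cord replicate 1 (3.92, 4.61 and 3.41, limma adjusted p at most 0.0013), and without replicate 2 the difference was −0.50 for Hoxd9, 0.01 for Hoxd10 and 0.21 for Hoxd11, none of them called.

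Beside the other clusters, HoxD showed the same general pattern with its own gaps. Among tested genes of groups 10 to 13, 3 of 3 HoxD, 3 of 3 HoxA, 1 of 1 HoxB and 4 of 4 HoxC genes rose in EED-cKO, and in spinal cord 1 HoxA gene and 0 of the others were called higher. In groups 5 to 9, 2 of 2 HoxD, 4 of 4 HoxA, 5 of 5 HoxB and 3 of 4 HoxC genes rose in EED-cKO. No test of HoxD against another cluster was made, and the values are a description. Summed over groups 10 to 13, EED-cKO levels were 41.5 and 33.5 RPKM for HoxD, 28.5 and 25.3 for HoxA, 37.3 and 34.4 for HoxB and 193.5 and 167.6 for HoxC. In spinal cord replicates 1 and 2 the same sums were 32.8 and 0.1 RPKM for HoxD, 40.1 and 3.1 for HoxA, 0 and 0 for HoxB and 79.6 and 0.2 for HoxC, so that each cluster with a signal was far higher in replicate 1.

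By paralogue number, the values of single genes were compared from group 3 onward. In group 3, Hoxd3 at 6.9 and 6.4 RPKM lay between Hoxb3 (11.4 and 11) and Hoxa3 (4.2 and 3.7). Hoxd4 was the highest of its group in EED-cKO, at 14.9 and 12.3 RPKM, with Hoxc4 at 7.2 and 8.3, Hoxb4 at 1.9 in both and Hoxa4 at 1.7 and 1.6. In spinal cord the ranges of Hoxd4 (46.1 and 47) and Hoxc4 (46.6 and 71.1) overlapped. Hoxd8, Hoxb8 and Hoxc8 had overlapping or adjacent levels in EED-cKO (7.9 and 6.1, 7.1 and 5.9, 8.2 and 8.6 RPKM), although in spinal cord Hoxb8 was at 367.3 and 408.4 RPKM and Hoxd8 at 45.4 and 35.2.

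In group 9, Hoxd9 (20.5 and 18.8 RPKM in EED-cKO) lay between Hoxc9 (24.2 and 22.7) and Hoxa9 (16.2 and 15.5), and Hoxb9 was at 2.8 and 2.1. It was the 1 member of its group that split the spinal cord libraries, since Hoxa9 was at 65.6 and 43.3 RPKM there and Hoxc9 at 40.7 and 41.3. In group 10, Hoxd10 (25.6 and 21.4) lay between Hoxc10 (53.5 and 46.4) and Hoxa10 (19.6 and 16.9), and in group 11, Hoxd11 (11.5 and 8.1) between Hoxc11 (16.8 and 15.8) and Hoxa11 (5.3 and 5.4). The ends of the clusters were less alike. Hoxd12 was at 0 in EED-cKO while Hoxc12 was at 74.8 and 64.9 RPKM, and Hoxd13 at 4.4 and 4 RPKM and Hoxa13 at 3.6 and 3 stood far below Hoxc13 (48.4 and 40.5) and Hoxb13 (37.3 and 34.4).

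**Figure D3:**
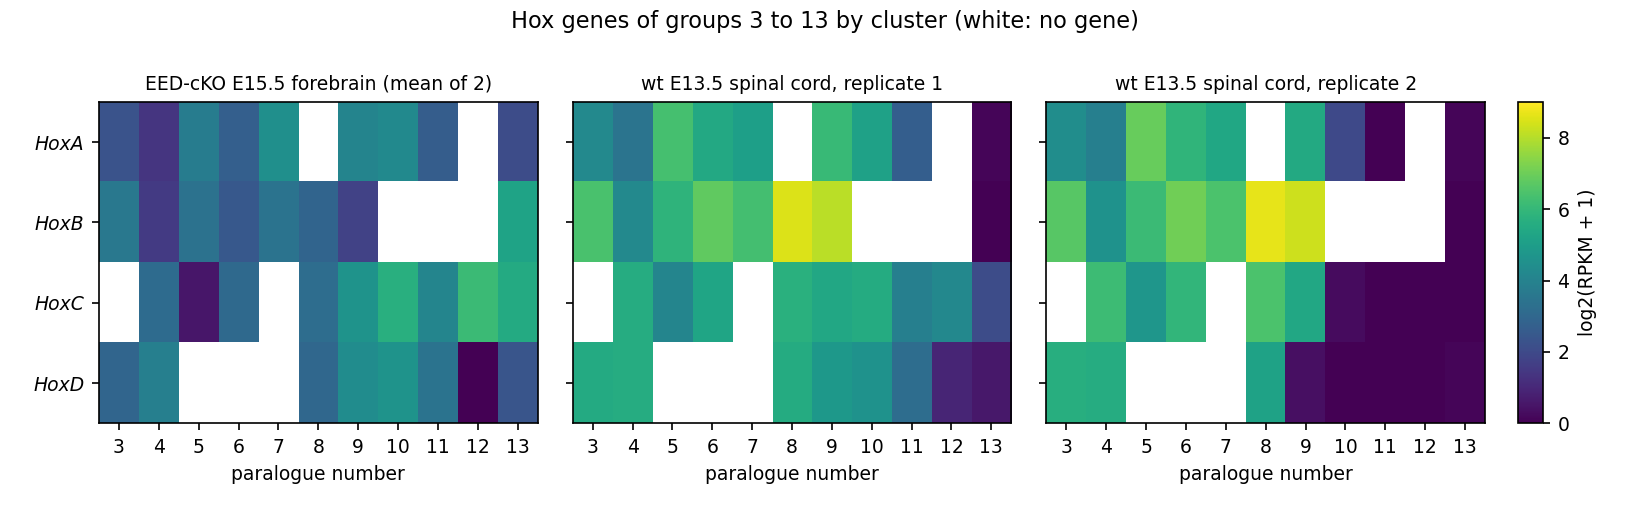
Levels as log2(RPKM + 1) (color) of Hox genes of paralogue groups 3 to 13 by cluster (rows) and paralogue number (columns) in EED-cKO forebrain (mean of 2), spinal cord replicate 1 and spinal cord replicate 2. White cells have no gene. In the HoxD row, Hoxd12 is at 0 RPKM in EED-cKO and Hoxd10 to Hoxd12 are at 0 in spinal cord replicate 2.

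Of the noncoding genes within the cluster, Haglr was called in both comparisons and Mir10b in spinal cord alone. Haglr, a long noncoding gene between Hoxd3 and Hoxd1, was at 1.1 RPKM in each EED-cKO library and 0 in wt (log2 difference 1.07 ± 0.0882, limma adjusted p = 2.0e-04), and at 6.9 and 8 RPKM in spinal cord against 0 in forebrain (3.08, limma adjusted p = 1.2e-06). Hoxd3os1, on the opposite strand to Hoxd3, was at 0.1 and 0.2 RPKM in EED-cKO and 0 in wt, and at 0.6 RPKM in both spinal cord libraries, and did not pass the filter. Mir10b, the gene of a microRNA that lies within the annotated Hoxd3 and Hoxd4 genes, was at 4.3 and 4.7 RPKM in spinal cord and at 0 in forebrain (2.46, limma adjusted p = 1.5e-06), but was listed at 0 in both EED-cKO libraries, where Hoxd4 and Hoxd3 rose. Mir10b overlaps each of them by only 68 bases, and with depth unknown its listed 0 cannot show absence. Both arms are shown for identity, since the table reports the gene and not an arm, from RefSeq (GRCm38.p6, plus strand) with the seed, bases 2 to 8, in capitals.
mmu-miR-10b-5p, chr2:74726074-74726096: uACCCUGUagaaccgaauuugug
mmu-miR-10b-3p, chr2:74726114-74726135: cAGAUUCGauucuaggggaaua
Of the 15 listed noncoding names 4 were found in the table, and 3 were tested, with 1 called higher in EED-cKO and 2 in spinal cord. The remaining one of the 3, 5830454E08Rik, was not matched to chromosome 2 and was not called in either comparison. Hoxd3 and Hoxd4 share 17232 bases of annotated span, and Hoxd3os1 overlaps both and Hoxd8 on the other strand. Reads were unstranded, so the levels of these overlapping genes are uncertain.

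Outside the cluster, Evx2 was called in both comparisons and the nearest other genes measured were not. Evx2, a homeobox gene at −15.2 kb from the Hoxd13 start that is used in spinal interneurons and digits, was at 2 and 1.7 RPKM in EED-cKO and 0 in wt E15.5 forebrain (log2 difference 1.51 ± 0.0866, limma adjusted p = 6.0e-05), and at 1.3 and 1.5 RPKM in spinal cord against 0 in forebrain (1.26, limma adjusted p = 4.6e-05). The next genes measured on each side were expressed in all 4 groups. Lnp, which shapes the endoplasmic reticulum, was at 21 and 23 RPKM in EED-cKO, against 25 and 23.5 RPKM in wt (limma adjusted p = 0.214), and Mtx2, a mitochondrial import protein gene, at 69.5 and 68.3, against 72.8 and 81.6 (limma adjusted p = 0.115). Of 17 tested flanking genes 6 rose and 2 fell in EED-cKO, and 4 were higher and 5 lower in spinal cord, with median differences of 0.06 and 0.05, and the 6 are close to the share of 30.2% over all tested genes. Beside Evx2 the largest changes in EED-cKO were in Nfe2l2, a factor of the oxidative stress response (20.6 and 21.7 RPKM, against 8.6 and 9.1 in wt, 1.17 ± 0.0745), and Wipf1, an actin regulator (0.98 ± 0.103), at 1007 and −1239 kb from the Hoxd13 start, and in Sp9, a factor of forebrain interneurons, which fell by 0.70 (SE 0.114).

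**Figure D4:**
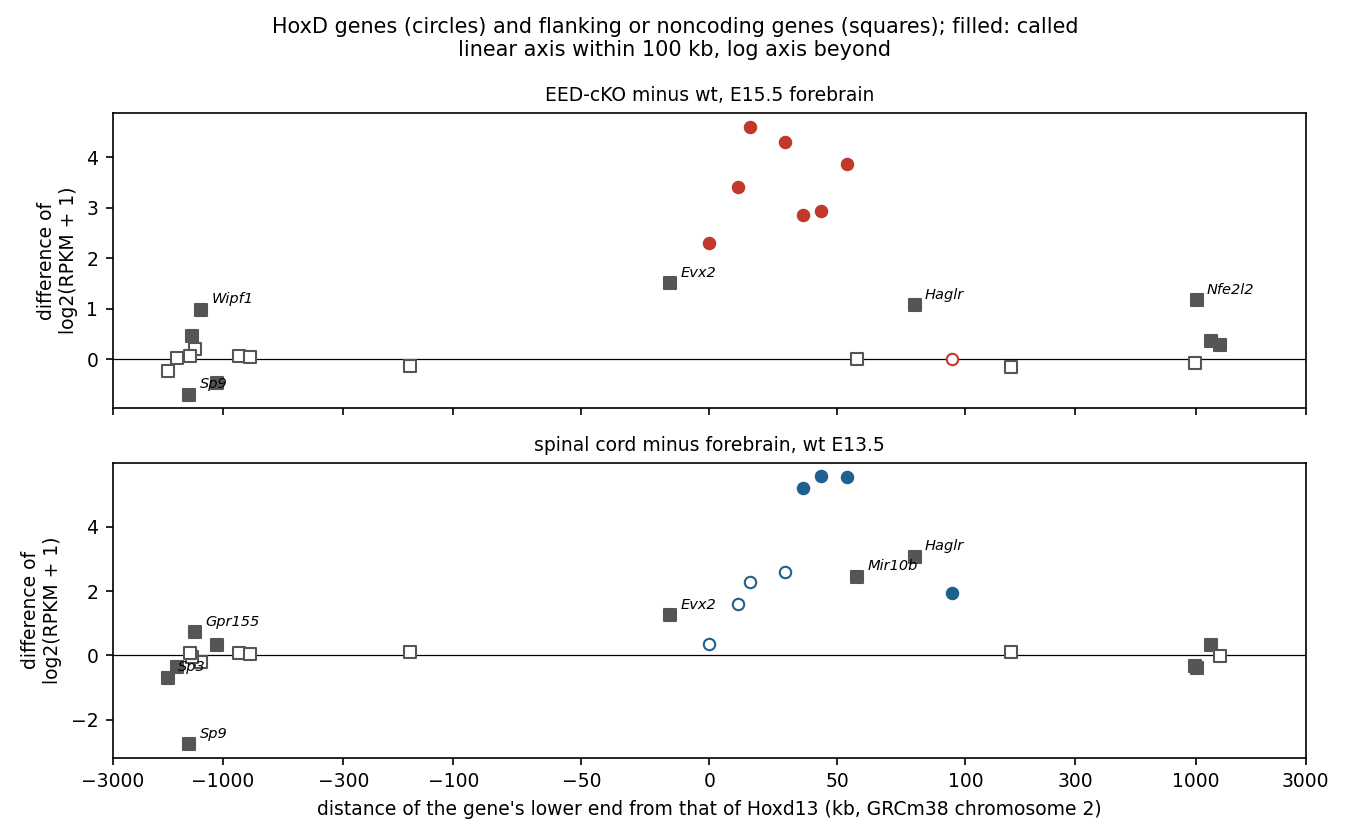
Difference of log2(RPKM + 1) for tested HoxD genes (circles) and flanking or noncoding genes (squares) against distance in kb from Hoxd13, for EED-cKO minus wt E15.5 forebrain (top) and spinal cord minus forebrain of wt E13.5 (bottom). The axis is linear within 100 kb and logarithmic beyond, and filled points were called by limma. The high values lie between Evx2 and Hoxd4 in EED-cKO, and Lnp and Mtx2 on the flanks lie near 0 in both panels.

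HOX proteins bind DNA with MEIS and PBX partners, which are expressed in forebrain as well. Of 9 tested genes among these cofactors and the Cdx factors, which activate Hox genes in the tail end of the embryo, 3 rose and 2 fell in EED-cKO, near the 30.2% higher and 16.7% lower over all tested genes. In spinal cord 5 were higher and 3 lower, beside 21.8% and 23.9% of all tested genes. Pbx3 was at 125.6 and 127.7 RPKM in EED-cKO, against 65.3 and 56.3 in wt (log2 difference 1.05 ± 0.0867, limma adjusted p = 2.0e-04), and Pknox2 at 33.1 and 32.3, against 16.1 and 15.3 (1.01 ± 0.192). Meis1 was at 11.7 and 14.1 RPKM in EED-cKO, against 6.5 in each wt library (0.88 ± 0.0991). Its spinal cord levels were 56.8 and 62.5 RPKM, against 11.3 and 12.1 in E13.5 forebrain. Meis2 fell to 67.3 and 67.5 RPKM in EED-cKO, against 151.5 and 135.1 RPKM in wt (−1.07 ± 0.0694). Cdx1, Cdx2 and Cdx4 were at 0.3 RPKM or less in EED-cKO and at 0 in all other libraries.

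The patterns over the 8 libraries fell into 2 sets with Hoxd13 and Hoxd1 at the ends. On log2(RPKM + 1), Pearson r was 0.987 to 0.998 among Hoxd3, Hoxd4 and Hoxd8, 0.992 to 0.998 among Hoxd9, Hoxd10 and Hoxd11, and 0.542 to 0.705 between the sets. Hoxd1 and Hoxd13 had r = −0.19. These r describe 8 libraries in 4 groups that share their scaling within an age. Hoxd9, Hoxd10 and Hoxd11 were at 0.3, 0 and 0 RPKM in spinal cord replicate 2, so r between the sets leans on that 1 library. Outside the Hox genes, the patterns most like Hoxd9, Hoxd10 and Hoxd11 were that of Hotair, a noncoding gene of the HoxC cluster (r = 0.992, 0.998 and 0.9998), followed by Gja3 (0.942, 0.945 and 0.952) and then Adamts5 for Hoxd9 (0.941) and Pax1 for Hoxd10 and Hoxd11 (0.939 and 0.948). Hotair was at 4.6 and 3.7 RPKM in EED-cKO and 3.5 RPKM in spinal cord replicate 1, and at 0 in every other library. Gja3 was at 1.1 RPKM or less in every library.

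For the anterior set the closest genes included Tlx3, Lbx1, Pax2 and Pax8, which encode transcription factors of spinal and hindbrain neurons. Hoxd3 was closest to Tlx3, Lbx1 and C130021I20Rik (r = 0.998, 0.997 and 0.996), Hoxd8 to Lbx1, Tlx3 and Foxd3 (0.997, 0.997 and 0.996), and Hoxd4 to Pax8, Mira and Pax2 (0.999, 0.999 and 0.998). Between 104 and 108 genes reached r = 0.95 with each of these 3, against 1 or 2 genes for Hoxd9, Hoxd10 and Hoxd11. The latter 3 split the spinal cord libraries, as only 13 of the 17022 tested genes did in that direction, so their low count leans on 1 library. Hoxd1 was closest to Scn10a, a sodium channel of pain-sensing neurons, at 12.7 and 7.6 RPKM in spinal cord and at most 0.1 RPKM elsewhere, then to Mirlet7a-1 and Mir7015 (r = 0.999 for all 3). Hoxd13 was closest to Angptl2, Rnf39 and Vasn (0.994, 0.993 and 0.993), and 332 genes reached r = 0.95 with it.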

How the data were processed

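RNA libraries were made with the NEBNext Ultra kit and sequenced single-end and unstranded on a HiSeq2500, per the labels' protocols. The authors deposited 1 table of RPKM values with 36333 rows and 1 column per library. The submitters' processing notes name the builds mm9 and GRCm38, and the aligner and counter are not given in the sources used here. Depth is unknown, so no counting interval was computed. In the 4 columns of E15.5, values were assigned to the names sorted alphabetically (case and hyphens ignored), which raised r between wt forebrain of the 2 ages from 0.760 to 0.948. Where a symbol stood in several rows (16 extra rows), 1 row was used, that of highest mean.

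log2(RPKM + 1) was fitted in limma 3.58.1 under R 4.3.3 (4 group means, 4 residual degrees of freedom, eBayes with trend, two-sided), with the knockout, the regional and their difference as contrasts. The test was checked on simulated data. Coordinates came from GENCODE M21 (GRCm38), and sequences and distances (from the lower end of Hoxd13 to that of each gene) from RefSeq GRCm38.p6. All 9 HoxD genes were named whatever their test. From the fixed lists, counts and at most 6 called genes each were named, and the 3 non-Hox genes with the highest r. The members, lists and rules were chosen with earlier results of these data known. Python 3.11.15 with numpy 2.4.6, pandas 2.3.3 and matplotlib 3.10.9 made tables and figures. Alternatives were other pseudocounts (0.1 and 0.5 RPKM), no filter, 2 other scalings, fewer libraries, a replicate block and the deposited row order. One item withheld for evaluation is not reported here.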

Additional observations from a re-analysis of the deposited data

How the results depend on the processing

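The number of HoxD genes called higher in EED-cKO was 7 and fell to 4 with no filter on low values, where Hoxd9, Hoxd10 and Hoxd11 missed the threshold (limma adjusted p = 0.077, 0.0717 and 0.0623), and ranged from 4 to 7 with 1 library left out. In the regional comparison it ranged from 4 to 8, with 8 without spinal cord replicate 2. Genes whose knockout change was the larger ranged from 1 to 4, and numbered 2 in the deposited row order. The difference for Hoxd9 turned to −0.50 without spinal cord replicate 2 and was 3.92 without replicate 1. Under the deposited row order 5 HoxD genes were called in EED-cKO, with Hoxd4 at 0 RPKM, Hoxd3 at 25.6 and 21.4, Hoxd12 at 7.9 and 6.1 and Hoxd13 at 20.5 and 18.8, so values of single genes at E15.5 rest on the restored order. Over all genes the knockout comparison had 7987 calls, 4777 with the 4 compared libraries alone, and 4922 to 9606 with 1 library left out. Of calls in that comparison 64.5% were higher, against 45.1% after quantile normalization and 49.8% after median ratio scaling, which moved the median of all genes from 0.08 to −0.05 and −0.01 (log2). For the difference of the changes the shares were 64.9%, 49.6% and 53%. The number of HoxD genes called in the knockout comparison stayed at 7 under both scalings. With a pseudocount of 0.1 RPKM, Hoxd9 and Hoxd13 were also called in the regional comparison (limma adjusted p = 0.0461 and 0.0312).

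Replicate numbers name libraries without saying that they share a litter or day. Differences between replicates correlated across genes with r = −0.12 between EED-cKO and wt E15.5 forebrain and 0.21 between the E13.5 tissues. The replicate block kept the counts of 7 and 4 HoxD genes, with 7608 genes called over all in the knockout comparison. A crossed pairing, chosen after seeing the data, gave 7 and 8013. The RPKM step of 0.1 limits values near 0, such as those of Hoxd3os1 and Hoxd12.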
